A study of Mus musculus with 6 samples.

Results

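The integrin chains examined here were Itga4, Itga5, Itga6, Itga9, Itgal, Itgav, Itgb1, Itgb2, Itgb3 and Itgb7. Every non-control probe whose gene name in the scanner files was one of these symbols was taken, which gave 10 of 34821 gene names and 17 of 55681 probes. The arrays carried RNA from sorted LSK cells, 3 samples from NIKaly/aly mice (arrays 2, 4 and 6) and 3 from NIKWT mice (WT, arrays 1, 3 and 5). LSK cells are the lineage-negative, Sca-1+ c-Kit+ fraction of blood-forming tissue that holds the stem cells and early progenitors. The Map3k14 gene encodes NIK, a kinase at the head of the alternative NF-κB pathway, and the aly allele is a natural loss-of-function point mutation. It is an inherited allele carried by niche cells too, not a deletion limited to LSK cells. No treatment is named for either genotype, and the labels used here give no age, sex, strain or pooling. Whether the 3 samples of a genotype were taken from different animals is not said, and the p-values therefore cover sample-to-sample spread only, which can be technical.

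Integrins are adhesion receptors made of 1 α and 1 β chain, and neither chain normally reaches the cell surface alone. The β1 chain pairs with α4, α5, α6, α9 and αV, β7 pairs with α4, β2 pairs with αL, and β3 pairs with αV. On blood stem and progenitor cells these receptors hold the cell to fibronectin, laminin, osteopontin and VCAM-1 in the bone marrow niche, and they take part in homing and mobilisation. Talin and kindlin switch them to the binding state through NPxY motifs in the β tail.

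The probes of the chains on which the results turn are given first, because each one reads a single stretch of the transcript. Positions are those of the scanner files on build mm9. The Itgb1 probe A_66_P113059 lies at chr8:131250081-131255976 on the plus strand, a span that includes an intron, and ends in the cytoplasmic tail. The capitals mark the codons of its 2 NPxY motifs.
Itgb1 A_66_P113059: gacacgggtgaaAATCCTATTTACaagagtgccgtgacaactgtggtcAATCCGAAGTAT
The other Itgb1 probe, A_52_P351816, lies upstream in coding sequence at chr8:131246349-131246408.
Itgb1 A_52_P351816: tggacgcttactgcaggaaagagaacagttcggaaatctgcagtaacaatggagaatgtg
For the α9 and β7 chains, which had 1 probe each, the first 30 bases are shown. The Itga9 probe lies at chr9:118807900-118807959 on the plus strand and the Itgb7 probe at chr15:102046450-102046509 on the minus strand.
Itga9 A_51_P382970: taccttcagctttgtgtagccaaaaaagcc
Itgb7 A_51_P359603: atttttcagagtgaccttcagagggcagca

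Levels are log2 of the processed signal minus the array's own 75th percentile, so 0 is the signal of the spot at that percentile. A level is comparable between arrays for 1 probe, not between probes. Differences are NIKaly/aly minus WT ± SE on that log2 scale, with 3 arrays per genotype. A probe was tested where it was well above background, by the scanner software's own call, on at least 3 of the 6 arrays. For a gene with several tested probes the brightest stands for it. The 75th percentile signal was 50.8 to 201 on the NIKaly/aly arrays and 47.0 to 225 on the WT arrays, and 33.1 to 45.6% of spots were well above background. Arrays 1 (WT) and 6 (NIKaly/aly) were the dimmest and were marked for evaluation in the scanner's quality summary. Of 8 LSK markers, 7 were well above background on all 6 arrays, Kit, Ly6a, Flt3 and Cd34 among them, and Slamf1 was so on 2. Within this list Procr, the stem cell marker EPCR, read 3.07, 2.50 and 2.65 in NIKaly/aly, against 2.0003, 1.72 and 2.17 in WT, without overlap. Cd34 was higher and Ly6a lower in NIKaly/aly in each consecutive pair. The part of these shifts in the chain differences was not tested. All 10 markers of mature neutrophils were well above background on all 6 arrays as well.

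Across the chains, Itga9 and Itga5 read lower in NIKaly/aly LSK cells without overlap of the groups, and Itgb1 read higher without overlap. Itgb7 and Itgal read lower within each pair of consecutively numbered arrays, while Itga4, Itga6, Itgav, Itgb2 and Itgb3 overlapped and had no shared sign over the pairs. All 10 genes and 15 of the 17 probes could be tested, against 38.2% of all probes, and 10 probes were well above background on all 6 arrays, against 28.4%. No chain passed an adjusted p of 0.05 in limma (Benjamini-Hochberg over 15684 genes), where the background was 0.00% of genes. At an unadjusted p under 0.05 there was 1 chain, Itga9, against 1.33% of genes. The smallest adjusted p of any gene was 0.99998, so every chain difference below is a measured value that missed the threshold. The groups did not overlap for 3 of 10 chains, against 4.57% of genes. Of these, 2 were lower in NIKaly/aly (1.89% of genes) and 1 was higher (2.68% of genes). Itga9, counted here and at the unadjusted p, was well above background on 3 WT arrays but only 1 NIKaly/aly array. It thus met the filter through the group where it read higher. In all, 7 of 10 chains read lower, against 51.5% of genes, and the median difference over the chains was -0.20, against -0.01 over all tested genes.

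**Figure D1:**
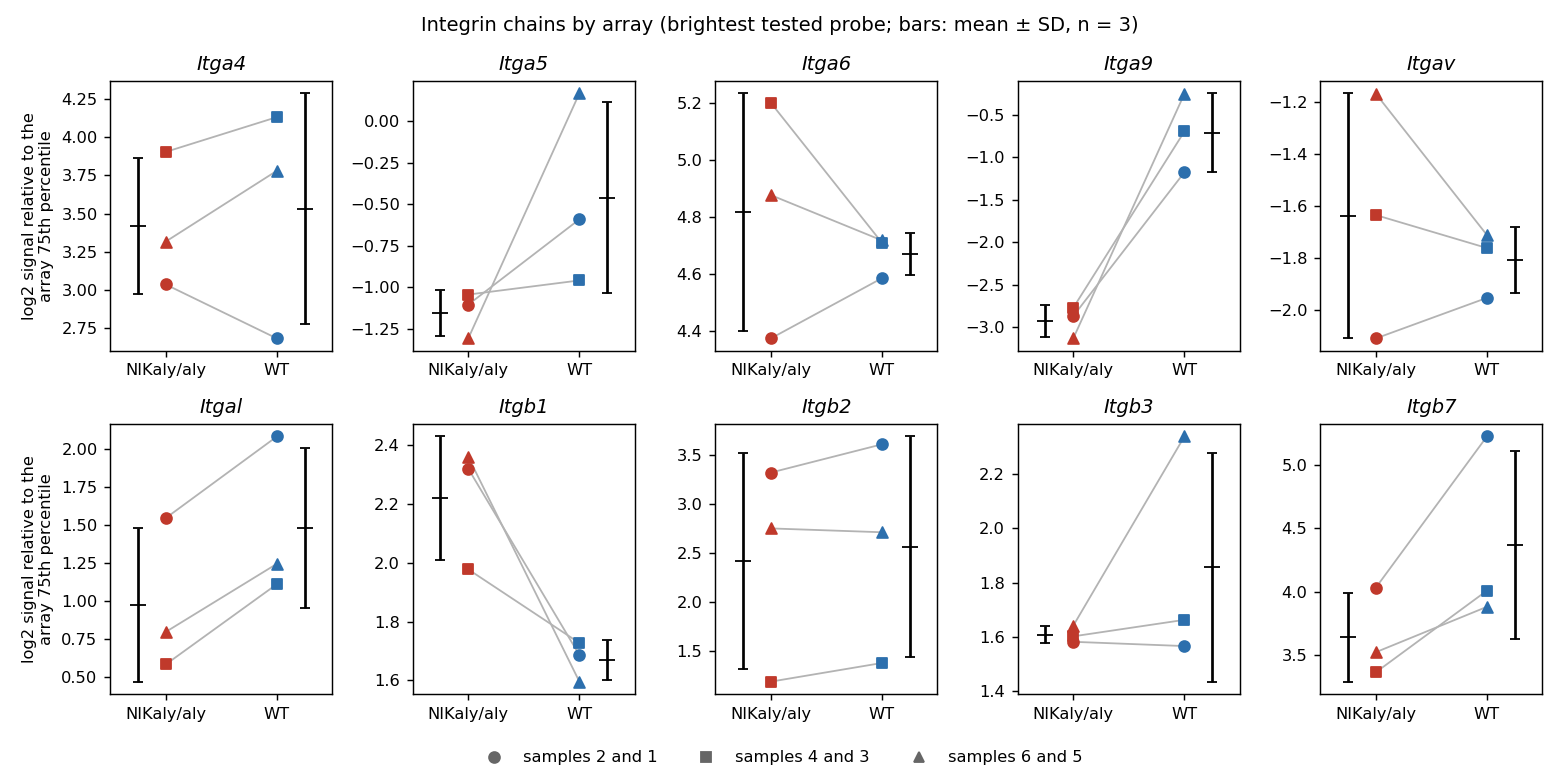
Level of each integrin chain on each array, as log2 processed signal minus the array's 75th percentile (vertical axis), with NIKaly/aly to the left of WT in each panel. Points are single arrays, symbols and grey lines mark consecutively numbered pairs, and bars are the mean ± SD of 3 arrays; Itga9 and Itga5 lie lower and Itgb1 higher in NIKaly/aly without overlap.

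The β1 chain, the common partner of most α chains on LSK cells, read higher in every NIKaly/aly array. Its tail probe read 2.32, 1.98 and 2.36 on NIKaly/aly arrays 2, 4 and 6, against 1.69, 1.73 and 1.60 on WT arrays 1, 3 and 5. The lowest NIKaly/aly array was thus above the highest WT array, and the WT arrays lay close together. The difference was 0.55 ± 0.25, a 1.46-fold higher signal (limma, unadjusted p = 0.058, adjusted p = 0.99998). Within the slide's upper row, arrays 1 to 4, it was 0.44, and in the other row, with 1 array per genotype, 0.76. The upstream probe of the same gene read 0.61, 0.30 and 0.72 in NIKaly/aly, against 0.61, 0.06 and 0.13 in WT. Here the groups overlapped and the difference was smaller, at 0.27 ± 0.29. Averaged over both probes, Itgb1 differed by 0.41.

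Itga9 encodes α9, a chain that binds tenascin-C, osteopontin and VCAM-1 with β1 and is known for its part in lymphatic valves and in progenitor adhesion. It had the widest difference of the chains. Its probe read -2.87, -2.77 and -3.13 in NIKaly/aly, against -1.18, -0.70 and -0.25 in WT, so the groups lay well apart. The difference was -2.21 ± 0.44, a signal 0.215 times that of WT (limma, unadjusted p = 0.00098, adjusted p = 0.99998). It was -1.69, -2.07 and -2.88 in the 3 consecutive pairs. These signals are dim. The processed signal was 17.2, 29.5 and 5.79 units in NIKaly/aly, against 20.8, 139 and 67.3 units in WT, and the scanner called the probe well above background on NIKaly/aly array 4 and on all 3 WT arrays. Array 6 read below the lowest level called well above background on that array, -1.85. With values raised to each array's lowest such level the difference was -1.79, and with normexp background correction it was -0.70. The normexp setting adds an offset of 50 units to every signal, which narrows log2 differences between dim signals. Itga9 was also the only chain at least 2-fold apart, against 2.07% of genes.

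Itga5 encodes α5, which forms the classical fibronectin receptor with β1. It read -1.10, -1.04 and -1.31 in NIKaly/aly, against -0.59, -0.96 and 0.17 in WT. The groups did not overlap, but the closest arrays, NIKaly/aly 4 and WT 3, differed by only -0.085, and WT array 5 stood above the other WT arrays. The difference was -0.69 ± 0.39 (limma, unadjusted p = 0.112), and it was -0.38 without WT array 5. Its signal was called well above background in 2 of the NIKaly/aly samples and in all 3 WT samples.

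The remaining α partners of β1 did not separate the genotypes. Itga4 encodes α4, the chain of the VCAM-1 receptors VLA-4 (with β1) and α4β7. It read 3.04, 3.90 and 3.32 in NIKaly/aly, against 2.68, 4.13 and 3.78 in WT, a difference of -0.11 ± 0.43. Its second probe differed by -0.08 ± 0.45. Itga6 encodes α6, a laminin receptor chain, and read 4.38, 5.20 and 4.88 in NIKaly/aly, against 4.59, 4.71 and 4.72 in WT. The WT arrays sat inside the NIKaly/aly range, and the difference was 0.15 ± 0.31. Its second probe, which read 0.08, 0.97 and 0.33 in NIKaly/aly against -1.42, 0.85 and 0.02 in WT, differed by 0.64 ± 0.57 with WT array 1 lowest.

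Itgav encodes αV, which binds RGD-containing ligands such as vitronectin and osteopontin. It read -2.11, -1.63 and -1.17 in NIKaly/aly, against -1.95, -1.76 and -1.71 in WT, a difference of 0.17 ± 0.43. Its other probe read -2.49, -1.47 and -1.76 in NIKaly/aly, against -1.08, -1.80 and -1.85 in WT, and differed by -0.33 ± 0.47. The 2 probes of Itgav thus pointed in opposite directions, and both groups overlapped on each.

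**Figure D2:**
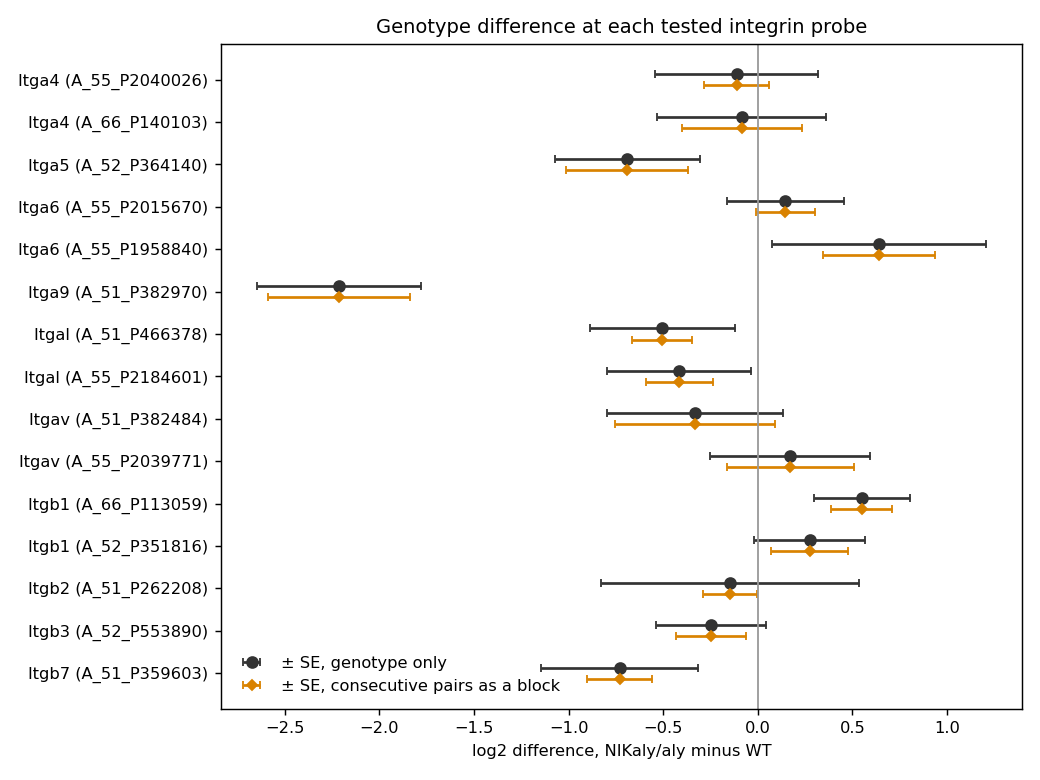
Difference of each tested integrin probe, NIKaly/aly minus WT in log2 units (axis), for 3 arrays per genotype; circles carry the SE of the genotype fit and diamonds that with consecutive pairs as a block. The Itga9 probe lies farthest below 0 and the Itgb1 tail probe farthest above 0 among probes whose groups do not overlap; the 2 Itgav probes lie on opposite sides of 0.

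The β7 chain makes α4β7, a receptor for the gut addressin MAdCAM-1 that is also found on progenitors. Itgb7 read 4.03, 3.36 and 3.52 in NIKaly/aly, against 5.22, 4.01 and 3.88 in WT. It was lower in NIKaly/aly in each consecutive pair, by -1.19, -0.64 and -0.36, although the groups overlapped because array 2 read above arrays 3 and 5. The difference was -0.73 ± 0.41 (limma, unadjusted p = 0.114), and it was -0.31 without WT array 1, the highest.

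LFA-1 is the receptor for ICAM-1 on leukocytes, made of αL and β2. Itgal read 1.55, 0.58 and 0.80 in NIKaly/aly, against 2.08, 1.11 and 1.24 in WT. The groups overlapped, but the pair differences were alike, at -0.54, -0.53 and -0.45, and the overall difference was -0.51 ± 0.38. It was -0.20 without WT array 1 and -0.79 without NIKaly/aly array 2, the 2 arrays with the highest Itgal levels, and -0.11 without arrays 1 and 6. A second Itgal probe gave -0.42 ± 0.38, with pair differences of -0.44, -0.61 and -0.20. The third Itgal probe was well above background on only 2 arrays, WT 3 and WT 5, and was not tested.

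Summed B cell and NK cell markers were lower in NIKaly/aly in each consecutive pair, as were Itgb7 and Itgal. Summed T cell markers were not. Of 9 B cell markers, 4 were well above background on all 6 arrays and Ighm was so on none. Their summed level was 5.97, 4.12 and 4.995 in NIKaly/aly, against 7.05, 5.004 and 5.29 in WT, lower in NIKaly/aly in each pair. Of 6 T cell markers on the array, 4 were well above background on all arrays and Cd8a on none. Their summed level was 4.67, 3.81 and 4.31 in NIKaly/aly, against 5.15, 4.31 and 3.88 in WT. It was thus higher in NIKaly/aly in samples 5 and 6. Of 5 NK cell markers, 1 was well above background on all arrays. Their summed level was 2.24, -0.62 and 1.83 in NIKaly/aly, against 2.93, 0.27 and 1.93 in WT. Their part in the result was not tested. In RNA from sorted bulk samples, fewer cells of a type and less RNA per cell cannot be told apart.

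Itgb2 encodes β2, the common chain of the leukocyte integrins, which neutrophils carry in large amounts. It read 3.32, 1.19 and 2.75 in NIKaly/aly, against 3.61, 1.38 and 2.71 in WT. The levels differed between the consecutive pairs far more than between the genotypes within a pair, where the differences were -0.29, -0.19 and 0.04. The overall difference was -0.15 ± 0.68. The pair means spanned 2.18, and only 5.27% of tested genes spanned more, with a median of 0.85 over all tested genes. By contrast the pair means of Itgb1 spanned 0.15, and 97.1% of tested genes spanned more.

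The summed level of the 10 neutrophil markers was 12.10, 10.28 and 11.97 in NIKaly/aly, against 12.89, 10.16 and 11.76 in WT. It was lowest on arrays 3 and 4, where Itgb2 was lowest as well. Over 6 arrays in 3 such pairs no correlation is given, and the part of the neutrophil markers in the Itgb2 level was not tested.

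**Figure D3:**
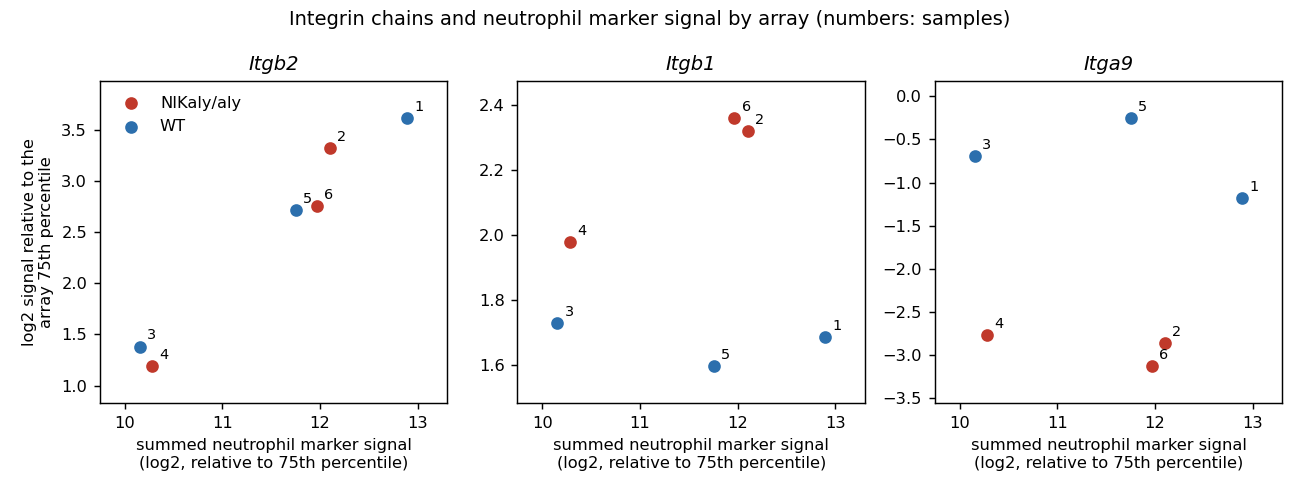
Levels of Itgb2, Itgb1 and Itga9 on each array (log2 relative to the array's 75th percentile, vertical axes) against the summed level of the 10 mature neutrophil markers on the same array (log2, horizontal axes), with NIKaly/aly and WT arrays in different colours and numbered by sample. Arrays 3 and 4 are lowest on both axes for Itgb2. The levels of Itgb1 and Itga9 separate by genotype. The part of the neutrophil markers in any of these levels was not tested.

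Itgb3 encodes β3, the chain of the vitronectin receptor αVβ3 and of the platelet fibrinogen receptor. It read 1.58, 1.60 and 1.64 in NIKaly/aly, against 1.57, 1.66 and 2.34 in WT. Except for WT array 5 the arrays of both genotypes were nearly equal. The difference was -0.25 ± 0.29, and -0.01 without WT array 5. The summed level of 10 megakaryocyte and platelet markers, 6 of them well above background on all arrays, was 4.74 to 5.49 in NIKaly/aly, against 4.84 to 5.59 in WT.

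Because an α chain needs its β partner, the level of each α probe was also set against its partner's within the same array. The value of such a ratio has no meaning of its own, since it joins 2 probes, but its change between arrays does not depend on the array's scaling. Of the 8 partner pairs, α9 with β1 differed most. The log2 ratio of Itga9 to Itgb1 was -5.19, -4.75 and -5.49 in NIKaly/aly, against -2.86, -2.42 and -1.85 in WT, a difference of -2.76 ± 0.36. This value rests on the dim Itga9 probe, well above background on a single NIKaly/aly array. It was -1.20 with normexp background correction and the same offset of 50 units. The groups lay apart, as they did for Itga5 to Itgb1, which was -3.42, -3.02 and -3.67 in NIKaly/aly, against -2.28, -2.69 and -1.43 in WT, a difference of -1.24 ± 0.41. With 3 arrays against 3 the exact permutation test, two-sided, cannot go below 0.1, and both ratios stood at that value (adjusted p = 0.4 over the 8 pairs).

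The other β1 ratios were also lower in NIKaly/aly, by -0.66 for α4, -0.40 for α6 and -0.38 for αV, but with overlap. The ratio of Itga4 to Itgb7 differed by 0.62 ± 0.96, that of Itgav to Itgb3 by 0.42 ± 0.32 and that of Itgal to Itgb2 by -0.36 ± 0.59. The sign of each of these turned in at least 1 pair or when 1 array was left out, as did that of Itga6 to Itgb1. All 5 ratios to Itgb1 share its level, so they are not separate evidence on β1.

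**Figure D4:**
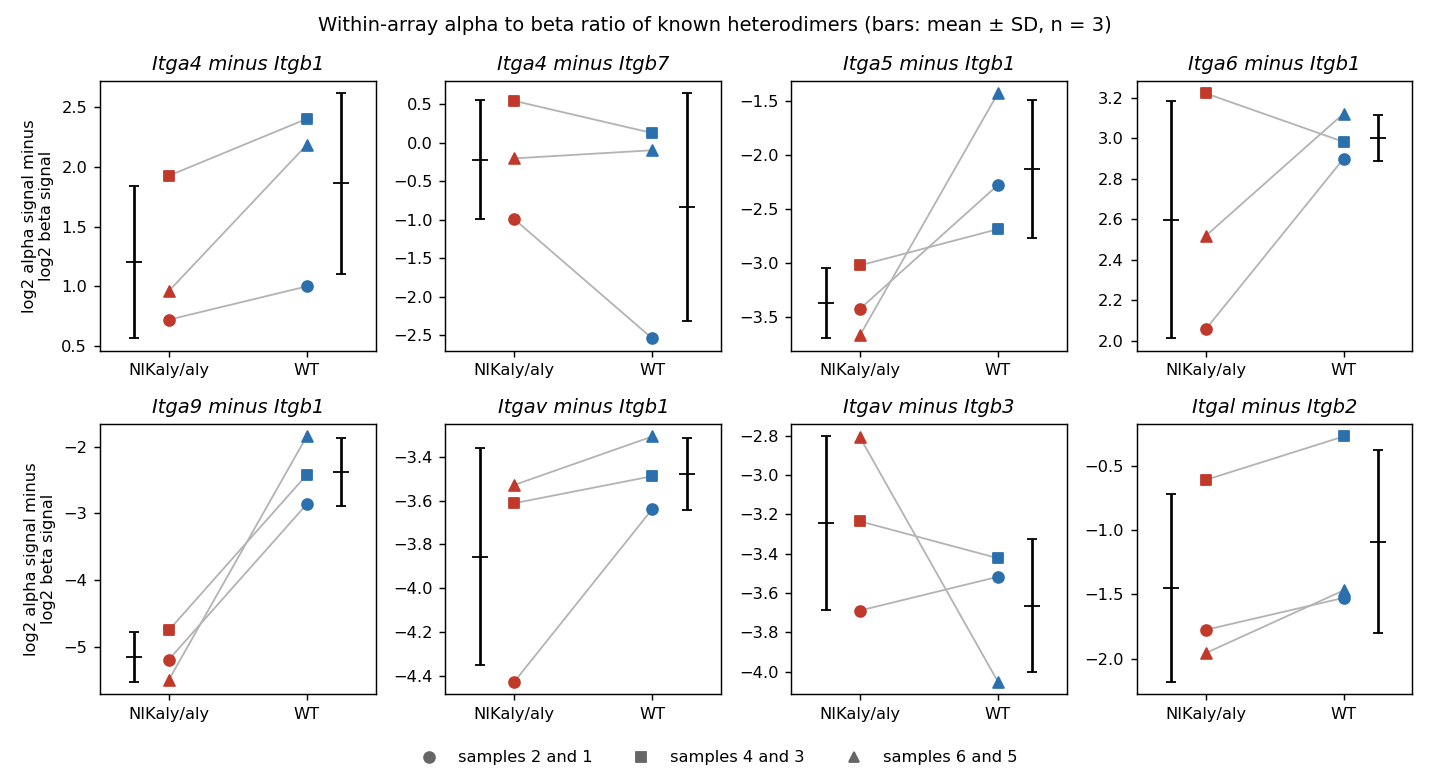
Within-array log2 ratio of each α chain to its β partner (vertical axis), 8 partner pairs, NIKaly/aly to the left of WT, 3 arrays each with mean ± SD. The ratios of Itga9 and Itga5 to Itgb1 lie lower in NIKaly/aly with no overlap.

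The arrays were hybridised on 1 slide, with consecutively numbered arrays of opposite genotype side by side. When the consecutive pairs were fitted as a block, 4 of 10 chains had an unadjusted p under 0.05 in limma, against 7.35% of genes. They were Itga9 (adjusted p = 0.131), Itgb7 (adjusted p = 0.263), Itgb1 (adjusted p = 0.428) and Itgal (adjusted p = 0.469). None passed an adjusted p of 0.05, against 0.0128% of genes. Lower in all 3 pairs were 4 of 10 chains (16.2% of genes), and higher in all 3 was 1 (13.8% of genes). With the array column as a random block, whose estimated correlation was -0.88, Itga5, Itga9, Itgb1 and Itgb7 passed, with adjusted p = 0.014, 0.0011, 0.0099 and 0.023. In that fit 8.79% of all tested genes passed. Each column holds arrays of 1 genotype only (WT 1 and 5 share a column, as do NIKaly/aly 2 and 6), so column and genotype cannot be told apart, and a negative correlation makes the errors smaller.

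Of the 17 integrin chains outside the 10, 6 could be tested and all 6 read lower in NIKaly/aly, against 51.5% of genes. Their median was -0.25, with no member past the adjusted threshold, and without the filter on dim probes the list median was -0.047. Another 6 were well above background on no array: Itga7, Itga8, Itga11, Itgad, Itgae and Itgb8. Itgax, the αX chain of dendritic cells and macrophages, read -0.90, -0.98 and -1.72 in NIKaly/aly, against -0.28, 0.20 and -0.48 in WT. The groups did not overlap, and the difference was -1.01 ± 0.38 (limma, unadjusted p = 0.027, adjusted p = 0.99998). Itgam, the αM chain of myeloid cells, differed by -0.17 ± 0.43, and Itgb5, a partner of αV, by -0.33 ± 0.31. Itga10, a collagen receptor chain, differed by -0.82 ± 0.96. Itga10 was well above background on only 1 NIKaly/aly and 2 WT arrays, and Itgax on 2 NIKaly/aly and 3 WT arrays. The summed level of 10 macrophage and dendritic cell markers, of which 4 were well above background on all arrays and Mrc1 on none, was 6.68, 7.33 and 7.51 in NIKaly/aly, against 6.95, 7.45 and 7.77 in WT. This sum holds Itgax itself and is dominated by Siglech, at 5.94 to 7.27 in NIKaly/aly and 6.13 to 7.50 in WT. The members did not move together. Csf1r, the receptor for the macrophage growth factor, read 3.82, 3.77 and 3.26 in NIKaly/aly, against 5.29, 4.51 and 4.55 in WT. Cd14, a receptor for bacterial lipopolysaccharide, read 4.25, 2.65 and 3.101 in NIKaly/aly, against 1.95, 0.06 and 1.87 in WT. Both genes thus separated the genotypes without overlap, in opposite directions, and the part of these markers in the Itgax difference was not tested.

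Of 21 integrin ligands, 12 were tested, 5 lower and 7 higher in NIKaly/aly, with a median difference of 0.03 and none past the adjusted threshold. F11r, the junctional adhesion molecule JAM-A that binds LFA-1, read 2.70, 2.81 and 2.92 in NIKaly/aly, against 2.24, 2.21 and 2.46 in WT. The groups did not overlap, and the difference was 0.50 ± 0.24. Fibronectin, Fn1, the ligand of α4β1 and α5β1, read 2.33, -0.20 and 1.65 in NIKaly/aly, against 3.13, 0.66 and 2.43 in WT. The genotypes overlapped widely, but the pair differences were -0.79, -0.85 and -0.78, and with pairs as a block the difference of -0.81 had an adjusted p = 0.151 in limma. The laminin chains Lama5 and Lamc1, ligands of α6β1, differed by 0.85 ± 0.81 and 0.27 ± 0.34.

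Of 20 activators, adaptors and inhibitors that act at the integrin tail, 16 were tested, 9 lower and 7 higher, with a median of -0.11. None passed, and the groups overlapped for every tested gene of this list. Talin, Tln1, which binds the NPxY motif shown above, read 6.91, 6.71 and 6.38 in NIKaly/aly, against 7.29, 6.82 and 6.72 in WT, a difference of -0.28 ± 0.34. Cytip, an inhibitor of LFA-1 adhesion through cytohesin, differed by 0.39 ± 0.34, Skap2, an adaptor in integrin signalling, by 0.24 ± 0.30, and Dok1, which competes with talin for β tails, by -0.22 ± 0.29.

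Of 35 focal adhesion and downstream signalling genes, 30 were tested, 22 lower and 8 higher, with a median of -0.12 and none past the threshold. For 3 of the 30 the groups did not overlap, all lower in NIKaly/aly, against 1.89% of genes. Syk, a tyrosine kinase downstream of leukocyte integrins, read 4.24, 4.32 and 3.95 in NIKaly/aly, against 4.42, 4.45 and 4.52 in WT, a difference of -0.29 ± 0.26. The Src family kinase Lyn differed by -0.36 ± 0.36, again without overlap. Zap70, a kinase related to Syk, differed by -0.50 ± 0.43 and paxillin, Pxn, by -0.36 ± 0.41, both with overlap.

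The 10 tetraspanins and other partners were all tested, 5 lower and 5 higher, with a median of -0.02, which was 0.45 without arrays 1 and 6. Cd9, a tetraspanin that associates with β1 integrins, read 3.72, 2.75 and 3.24 in NIKaly/aly, against 3.31, 2.09 and 2.82 in WT, higher within each pair and overlapping between the groups. Its difference was 0.50 ± 0.40. Cd63, Cd37 and Cd53 differed by 0.22 ± 0.43, -0.17 ± 0.35 and -0.14 ± 0.28.

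**Figure D5:**
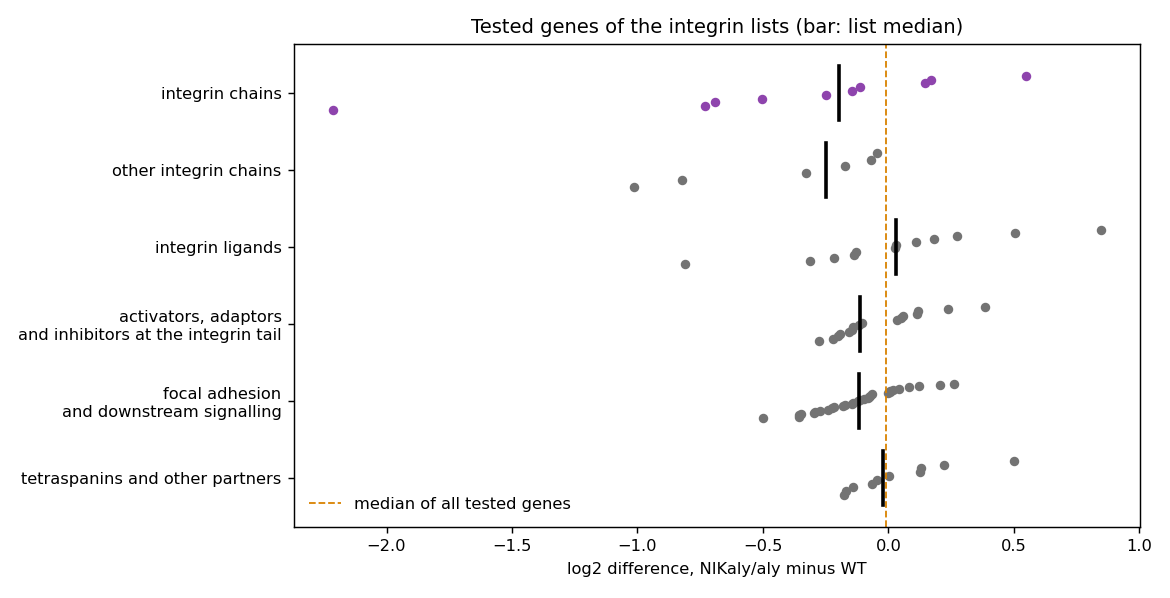
Difference of each tested gene, NIKaly/aly minus WT in log2 units, for the 10 integrin chains and the 5 other lists, with each list's median marked. The medians lie between -0.25 and 0.03, against -0.01 over all tested genes.

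The genes whose pattern over the 6 arrays was closest to that of Itga9, by root mean square distance of the levels after centring, were Snapc1 at 0.46 and Gm6524 at 0.50 log2 units, with a median of 1.25 over all tested genes. Snapc1, a subunit of the complex that starts small nuclear RNA transcription, read -2.97, -2.18 and -3.35 in NIKaly/aly, against -1.41, -1.37 and -1.11 in WT. These signals are dim as well. On NIKaly/aly arrays 2 and 6 Snapc1 read below the lowest level called well above background on that array, -2.88 and -1.85. Closest to Itgb1 were Fbxl14 at 0.04, Icmt at 0.07 and Seh1l at 0.08, against a median of 0.52. They differed between the genotypes by 0.49, 0.49 and 0.48. Genes picked for a profile this close to that of Itgb1 must differ by about as much as Itgb1, so these values are not separate evidence. Those closest to Itga9 were picked in the same way.

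Promoter windows from 250 bases before to 50 after the gene start were taken from RefSeq (GRCm38.p6) and matched 6 of the 10 chains, Itga4, Itga5, Itga9, Itgav, Itgb1 and Itgb7. The κB motif, searched by its degenerate form on both strands, was in 0 of these 6 windows and in 4.51% of all 32851 windows. These letters are not in these windows, and nothing follows from this about the factor.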

How the data were processed

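Cy3-labelled cRNA from 6 LSK samples, amplified with a T7-based low-input kit per the labels' protocols, was hybridised to 1-colour Agilent arrays on 1 slide. Per the file headers, the authors extracted the intensity signals with Agilent Feature Extraction 10.7.3.1 (protocol GE1_107_Sep09), which corrects background, and probe positions are on mm9. The deposited value table holds linear ratios: over 55249 probes each column equalled the processed signal divided by that array's median over non-control spots, to within a relative deviation of 1.93e-06. Every column of it has a median of 1, and genes are not centred.

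Here log2 of the processed signal was taken and the 75th percentile of each array's non-control spots subtracted. Control and outlier-flagged spots were left out, spots of a probe averaged and probes well above background on at least 3 of 6 arrays kept. The brightest probe stood for each of 15684 genes, and limma 3.58.1 in R 4.3.3 (lmFit, eBayes with trend, two-sided, Benjamini-Hochberg) compared NIKaly/aly with WT. Array number limits the precision. Named were every chain and probe, up to 4 genes of smallest unadjusted p per list, and the 3 closest patterns to Itga9 and Itgb1; 1 of these has no gene symbol and is not reported. The members, lists and tests were chosen with earlier results of these data known. Consecutive samples deviated together (correlations 0.737, 0.686 and 0.598), but the labels do not pair them, so the block is an alternative. The fit was tested on simulated data in which the arrays varied independently. That test does not cover the shared deviations of consecutive samples. Alternatives changed scaling, background, filter, probe choice, weights, batch and samples.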

Additional observations from a re-analysis of the deposited data

Results flagged for a closer look

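A second Itgb3 probe, A_66_P126293, which the comparisons did not use because it was well above background on 1 array only, carried signal on NIKaly/aly array 6, at a log2 level of -0.96. It was not well above background on the other 2 NIKaly/aly arrays or on any WT array. This is 1 array, and it is 1 of the arrays marked for evaluation. Groups of 3 arrays were not examined for single outlying samples.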

How the results depend on the processing

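The labels give the genotypes no shared replicate numbers; with consecutively numbered samples taken as pairs and fitted as a block, 2 genes of 15684 passed. The count of tested genes past the adjusted threshold, 0 as reported, was 1 with normexp, 10 with median scaling, 9 in the authors' deposited table, 2 without a filter on dim probes, 5 with array weights, 1378 with the array column as a random block and 2 without samples 1 and 6. It was 0 to 1 when each array was left out in turn. The count of integrin chains past it stayed at 0 except for 4 with the column block; the cause was not tested. The median of all genes, -0.01 as reported, was 0.091 with median scaling and 0.15 without samples 1 and 6, and ran from -0.11 (without NIKaly/aly 2) to 0.099 (without WT 1). The median over the chains ran between -0.52 (without WT 3) and -0.040 (without WT 5). Some differences turned their sign: Itgav gave -0.098 with normexp, -0.080 as the mean of its probes, -0.015 within slide row 1 and -0.14 without samples 1 and 6; Itga4 gave 0.063 within slide row 1; and Itgb2 gave 0.21 without samples 1 and 6. Leaving out single arrays, Itga4 ranged from -0.54 to 0.19, Itga6 from -0.045 to 0.37, Itgav from -0.063 to 0.41 and Itgb2 from -0.74 to 0.47. Among the ratios to a β partner, Itga4 to Itgb7 turned to -0.23 without WT 1, and Itgal to Itgb2 to 0.051 without WT 3. Single pairs also turned Itga4 to Itgb7 (-0.11 in samples 5 and 6), Itgav to Itgb3 (-0.17 in samples 1 and 2) and Itga6 to Itgb1 (0.24 in samples 3 and 4). With single arrays left out, list medians ran from -0.24 to 0.28 for tetraspanins and partners (0.45 without samples 1 and 6), -0.26 to 0.32 for ligands, -0.19 to 0.12 for activators and adaptors, -0.21 to -0.00039 for focal adhesion genes and -0.44 to -0.12 for the other integrin chains. Itga9 stayed between -2.45 and -1.99 and Itgb1 between 0.48 and 0.67 when single arrays were left out. Over all alternatives, Itga9 ran from -2.48 (without samples 1 and 2) to -0.70 (normexp). Itgb1 ran from 0.35 (array weights) to 0.67 (column block). Requiring a signal well above background on all 6 arrays leaves no value for Itga5, Itga9 and Itgav, so dim signal limits these 3 chains. Omitting samples 1 and 6, and raising dim values to the array's lowest level well above background, were chosen after seeing the data.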
